A study of Mus musculus with 8 samples.

Results

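Mouse embryonic fibroblasts without their own Taf4 were given human TAF4 either whole or without its TAFH domain, and gene expression in the clones of these 2 forms was compared. The genes compared were all autosomal genes with at least 1 FPKM (fragments per transcript kilobase, adjusted for the size of the library) in at least 2 of the 8 libraries of the series. That rule kept 11819 of the 23281 gene and chromosome pairs in the deposited table. Of these, 179 whose longest transcript is under 300 bases were left out, so that 11640 genes were tested.

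All libraries are mRNA sequencing of fibroblasts of the C57BL/6 strain. The full-length group holds clones 1 and 2 labelled Taf4 -/- Tg: hTAF4 wt, here called wild-type clones, and the other group holds clones 1 and 2 labelled Taf4 -/- Tg: hTAF4 Δ (TAFH-deleted). Both groups thus lack mouse Taf4 according to the labels and carry human TAF4 as a transgene. The other 4 libraries give reference levels. Control cells are Taf4 loxp/-, which a second field of the labels names wild type, and knockout cells are Taf4 -/-. The labels do not give the promoter that drives the transgene, nor whether clones of a form arose independently or were grown as separate cultures. What belongs to the form and what to the origin of a clone therefore cannot be told apart, and the p-values describe only how far these libraries spread.

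TAF4 is a subunit of TFIID, the general transcription factor that binds core promoters and helps to place RNA polymerase II at gene starts. Its TAFH domain, shared with the ETO family of corepressors, is a docking surface for activators, among them the E proteins encoded by Tcf3, Tcf4 and Tcf12. E proteins are basic helix-loop-helix factors that bind the E box, CANNTG, as dimers, and Id proteins hold them off DNA. Fibroblasts build and remodel the extracellular matrix and send growth factors and cytokines to other cells.

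Library totals implied by the step between low FPKM values, counted in units of 1000000 fragments, were 17.1 and 16.9 for wild-type clones, 14.3 and 16.2 for TAFH-deleted clones, and 14.8 to 17.3 for the others. At this depth 1 fragment of a 2-kilobase transcript was worth 0.0322 to 0.0390 FPKM. Abundant genes came near a ceiling of 1 read per position, and 37.0% of the tested genes had over 20% of their possible read starts in use. Within the control pair and within the knockout pair the libraries differed by less than sampling noise, and each pair was averaged and counted as 1 sample. Over genes of 2 to 7 fragments the chi-square per gene (1 when reads are independent) was 0.774 ± 0.0383 (SE) for control, 0.616 ± 0.0334 (SE) for knockout. It came to 1.66 ± 0.0711 between wild-type clones and 2.46 ± 0.104 between clones of the deleted form. Mouse Taf4a stood at 11.3 FPKM in control, at 12.5 in the libraries labelled knockout, 14.5 and 15.0 with wild-type TAF4, and 14.7 and 19.2 with the deleted form, so its level did not set the knockout libraries apart and does not check their label. The sources used here do not say which exons are deleted, and whether reads of the human transgene were counted as mouse Taf4a was not tested.

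Fibroblast genes were present in every library. The 17 fibroblast markers summed to between 1218 and 1403 FPKM, with Vim at 120.2 or more and Col1a1 at 113 or more in each. Thy1 and Fap stayed under 0.12 FPKM. Of the 15 markers tested, 7 were higher and 8 lower with the deleted form than with full-length TAF4. Pdgfra, described below, fell from 52.9 and 56.7 to 11.5 and 8.81 FPKM. All 15 had over 20% of their possible read starts in use. Of the markers of other cell types, 11 of 14 macrophage and leukocyte genes, 9 of 10 endothelial genes, 13 of 16 epithelial genes and 12 of 16 muscle genes did not reach 1 FPKM in 2 libraries. Neural and glial markers were less often absent: of 15 genes 7 were tested, 6 were too low and 2 were not on autosomes. They summed to 132 and 128 FPKM in control and 26.0 and 27.6 in knockout. Sums were 33.8 and 36.1 with full-length TAF4 and 31.2 and 65.6 with the deleted form. Tyrobp and Epcam were listed at 0 in all 8 libraries, and Ptprc, Cdh5 and Pecam1 stayed at or under 0.155 FPKM. The macrophage and leukocyte list summed to 23.6 and 17.2 FPKM with full-length TAF4 and to 7.80 and 9.04 with the deleted form, and its part in the results was not tested. In bulk RNA, fewer cells of a type and less RNA per cell cannot be told apart.

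More genes passed the test downwards than upwards. The limma test on log2(FPKM + 1), adjusted by Benjamini-Hochberg over all 12025 genes of all chromosomes, called 196 autosomal genes lower in the TAFH-deleted clones (1.68% of those tested) and 59 higher (0.507%). Without adjustment, 1457 genes on the lower side (12.5%) and 1750 on the higher side (15%) had a p under 0.05. The sizes differed between directions: the median log2 difference was -1.92 among genes called lower and 1.10 among genes called higher, against 0.05 over all tested genes. The groups did not overlap in any of the 255 called genes (2.19% of those tested), as in 26.9% of all tested genes on the lower side and 35.8% on the higher side. The nearest libraries of the 2 groups lay at least 2-fold apart in 360 genes on the lower side (3.09%) and in 57 on the higher side (0.49%), which include 176 of the 196 and 28 of the 59 called genes.

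The number of calls depended on which clones entered the fit. Log2 differences between the wild-type clones had an SD of 0.204 over the tested genes and 39 genes were at least 2-fold apart, while clones of the deleted form had an SD of 0.578 and 906 such genes. Without either wild-type clone limma called 0 genes, with 265 higher and 528 lower at an unadjusted p under 0.05 without clone 1, and 298 and 607 without clone 2. With clone 2 as the lone TAFH-deleted sample, whose spread is then assumed to be that of the other groups, the calls numbered 3600 higher and 2833 lower, and with clone 1 alone 2534 and 1976. A single gene cannot pass an exact permutation test of 2 clones against 2, whose smallest two-sided p is 0.333. The values in each clone, rather than the number of calls, therefore carry most of what follows.

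**Figure D1:**
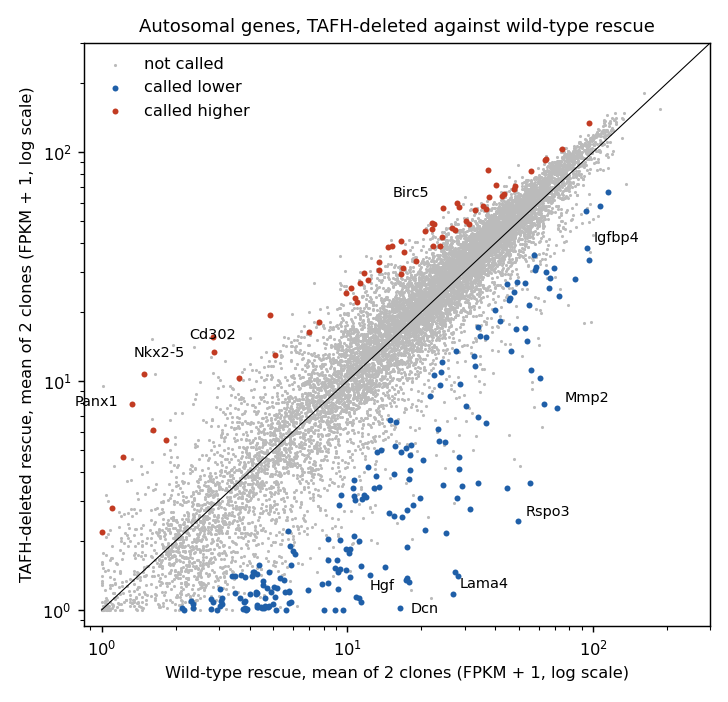
Mean FPKM + 1 of the 2 wild-type clones (horizontal, log scale) and of the 2 TAFH-deleted clones (vertical, log scale) for the 11640 tested autosomal genes, with the line of equal levels. Blue points mark the 196 genes called lower and red points the 59 called higher by limma; the blue points lie farther from the line, many of them near the floor of the TAFH-deleted axis.

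Many of the genes called lower were close to silent in the TAFH-deleted clones. Both of those clones were under 1 FPKM in 93 of the 196, and in 28 of these both wild-type clones were at 5 FPKM or more. On the higher side, both wild-type clones were under 1 FPKM in 7 of the 59 called genes, and 2 of these were at 5 FPKM or more in both TAFH-deleted clones. Of the genes called higher 52.5% had over 20% of read positions in use, against 17.9% of the genes called lower. Whether the ceiling of 1 read per position compresses their differences was not tested.

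Since E proteins bind E boxes, the promoters of called genes were read for them. RefSeq promoters (GRCm38.p6, 300 bases around the first listed start) were matched for 9258 of the 11640 tested genes. The promoters of 3 genes called lower are printed first, because they hold E boxes and belong to secreted proteins described further on; capitals mark each CANNTG. Ctsk lies at chr3:95498960-95499259 (plus strand), Hgf at chr5:16553245-16553544 (plus strand) and S100a8 at chr3:90668821-90669120 (plus strand).
Ctsk: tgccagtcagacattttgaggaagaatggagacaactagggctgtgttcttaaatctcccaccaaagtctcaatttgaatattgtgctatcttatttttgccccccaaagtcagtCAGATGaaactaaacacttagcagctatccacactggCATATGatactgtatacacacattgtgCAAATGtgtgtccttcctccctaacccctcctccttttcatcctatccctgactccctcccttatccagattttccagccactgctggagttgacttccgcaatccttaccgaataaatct
Hgf: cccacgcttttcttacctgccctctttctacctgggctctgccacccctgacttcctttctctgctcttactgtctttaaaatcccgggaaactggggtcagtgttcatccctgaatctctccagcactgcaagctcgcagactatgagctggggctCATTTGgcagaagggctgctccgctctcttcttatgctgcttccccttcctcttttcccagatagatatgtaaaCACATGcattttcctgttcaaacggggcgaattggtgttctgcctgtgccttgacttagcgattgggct
S100a8: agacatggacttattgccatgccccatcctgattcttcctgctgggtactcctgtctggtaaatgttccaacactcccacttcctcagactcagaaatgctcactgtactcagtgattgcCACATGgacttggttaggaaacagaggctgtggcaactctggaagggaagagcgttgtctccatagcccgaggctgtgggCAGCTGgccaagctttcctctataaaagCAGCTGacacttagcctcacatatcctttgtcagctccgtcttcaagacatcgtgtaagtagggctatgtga

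Ctsk and S100a8 each hold 3 matches and Hgf holds 2, and both matches of CAGCTG, a form of the E box, are in S100a8. Of the other matched promoters among the 16 largest falls, that of Gpnmb holds 2 CANNTG and that of Dio3 holds 1. Those of Col8a2 and Npnt hold 0. CANNTG was searched with any 2 bases in the middle, which covers both strands, and CAGGTG on either strand. A CANNTG was present in 69.2% of the 133 matched promoters of genes called lower, 57.1% of the 42 of genes called higher, 61.2% of those of all tested genes and 72.1% of all 27025 promoters in the table. CAGGTG was present in 23.3%, 16.7%, 16.1% and 20% of the same sets, and CAGCTG in 17.3%, 2.38%, 14.4% and 16.1%. CACGTG lay the other way for genes called lower, at 4.51%, 2.38%, 10.3% and 7.24%, and CATATG was present in 3.01%, 0%, 1.36% and 3.91%. These matches describe the letters and are not binding sites.

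The next 3 promoters belong to mitotic genes called higher: Cdca3 at chr6:124829926-124830225 (plus strand), Kif23 at chr9:61946750-61947049 (minus strand) and Spc25 at chr2:69206164-69206463 (minus strand). Mitotic genes are known to carry CCAAT boxes and the cell cycle homology element TTTGAA close to their starts, and these 3 were chosen because they hold both; capitals mark CCAAT and TTTGAA on either strand.
Cdca3: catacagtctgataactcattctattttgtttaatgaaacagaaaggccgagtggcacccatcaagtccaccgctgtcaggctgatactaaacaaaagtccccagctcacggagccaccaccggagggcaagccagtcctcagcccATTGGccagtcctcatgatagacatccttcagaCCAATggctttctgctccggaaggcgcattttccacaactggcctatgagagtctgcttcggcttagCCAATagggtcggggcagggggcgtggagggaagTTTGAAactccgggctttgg
Kif23: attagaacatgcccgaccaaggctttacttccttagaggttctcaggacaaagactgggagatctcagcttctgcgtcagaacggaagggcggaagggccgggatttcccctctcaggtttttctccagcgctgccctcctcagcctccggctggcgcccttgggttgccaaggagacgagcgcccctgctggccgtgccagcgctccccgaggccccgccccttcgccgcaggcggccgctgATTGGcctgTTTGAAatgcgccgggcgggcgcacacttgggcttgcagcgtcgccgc
Spc25: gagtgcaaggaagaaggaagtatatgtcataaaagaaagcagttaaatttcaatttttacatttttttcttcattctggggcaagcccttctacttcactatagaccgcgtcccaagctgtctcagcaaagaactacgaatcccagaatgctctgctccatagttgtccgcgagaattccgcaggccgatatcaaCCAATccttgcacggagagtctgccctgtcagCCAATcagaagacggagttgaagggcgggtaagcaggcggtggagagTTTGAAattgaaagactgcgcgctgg

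Each of the 3 holds 1 TTTGAA, with 3, 1 and 2 CCAAT boxes respectively. Of the other matched promoters of called mitotic genes described below, that of Kif11 also holds both, and those of Birc5 and Mad2l1 hold neither. That of Bub1 holds 2 CCAAT boxes and no TTTGAA. Over the 64 matched promoters of the mitosis list described below, TTTGAA was present in 65.6% and CCAAT in 68.8%, against 11.4% and 39.2% over all tested genes and 18.1% and 37.9% over all promoters in the table. Among 52 promoters of DNA replication genes the shares were 15.4% and 61.5%. No binding was measured at these letters.

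Extracellular matrix genes were among the largest falls. Lama4, the alpha-4 chain of basement membrane laminins (chromosome 10, 38685321 to 38829994, mm9), was at 24.5 and 27.1 FPKM with full-length TAF4 and 0.180 and 0.179 with the deleted form, 19.3 in control and 5.69 in knockout. Its log2 difference between the forms was -4.51 ± 0.17 (SE, limma adjusted p = 0.0204). Both TAFH-deleted clones thus stood below knockout as well as control. Npnt, nephronectin, a basement membrane ligand of integrin alpha-8, was at 25.3 and 23 FPKM against 0.425 and 1.92 (-3.62 ± 0.40, adjusted p = 0.0453), with control at 41.2 and knockout at 0.244. Here knockout and the TAFH-deleted clones were low together. Among basement membrane genes 13 of 15 were lower, 2 of them called (the 2 just named), and the median log2 difference was -0.64. Over all tested genes 44.9% were lower and 1.68% called lower. The highest member of this list was Sparc, a collagen chaperone, at 110 and 111 FPKM against 128 and 105.

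Of 26 small proteoglycans and other matrix glycoproteins 25 were lower and 3 called (44.9% and 1.68% over all tested genes), with a median of -1.05. Dcn, decorin, which coats collagen fibrils, was at 19.1 and 11.6 FPKM with full-length TAF4 and listed at 0 and at 0.0387 with the deleted form, with control at 24.2 and knockout at 0.642. Vit, a matrix protein with von Willebrand domains, was at 28.9 and 25.8 FPKM against 0.544 and 0.277. Fmod, fibromodulin, another collagen-binding proteoglycan, was at 30.2 and 26.2 FPKM against 3.33 and 1.60, with control at 50.1 and knockout at 1.02. The 2 forms did not overlap in any of these, and all 3 fell (adjusted p = 0.0256 for Vit, 0.0366 for Dcn and 0.0426 for Fmod). The 1 member that was higher was Thbs1, thrombospondin-1, at 118 and 119 against 128 and 124 FPKM, in the range where the read ceiling applies.

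Most collagen chains were lower. Of 24 measured chains 20 were lower and 5 were called (44.9% and 1.68% over all tested genes), with a median of -0.55. Those called were the short-chain collagen Col8a2 and the cartilage collagens Col2a1, Col10a1 and Col27a1, together with Col12a1, which sits on the surface of fibrils. Col8a2 was at 18.9 and 14.9 FPKM against 0.391 and 0.254, and Col2a1 at 9.26 and 9.04 against 1.14 and 0.417. Col10a1 was at 6.07 and 3.52 against 0.120 and 0.274, Col27a1 at 9.11 and 9.91 against 2.45 and 2.39, and Col12a1 at 68.1 and 61.8 against 21.4 and 27.2. Col5a1, another fibril-forming chain, was not called, at 91.0 and 93.6 FPKM against 86.2 and 87.6, and the highest chain was Col7a1, the anchoring fibril collagen, at 3.59 and 3.77 against 5.5 and 12.9.

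Enzymes that cut the matrix and integrins that bind it were among the calls. Mmp2, the gelatinase A protease, was at 69.9 and 71.0 FPKM with full-length TAF4 and 6.35 and 6.95 with the deleted form (log2 difference -3.23 ± 0.09 SE, limma adjusted p = 0.0204). Control was at 46.5 and knockout at 48.9, so the knockout library stayed near control while both TAFH-deleted clones lay far below it. Ctsk, the collagen-cleaving cathepsin K whose promoter is printed above, was at 26.4 and 26.6 FPKM against 0.494 and 0.434, with control at 18.8 and knockout at 6.16. Adamts12, a secreted metalloprotease, was at 15.7 and 17.0 against 4.80 and 3.43 (adjusted p = 0.0471). Of 37 proteases and inhibitors 28 were lower, 3 of them called (44.9% and 1.68% over all tested genes), with a median of -0.54.

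Of the integrins, 3 alpha chains fell. Itga8, the receptor chain for nephronectin, was at 3.92 and 2.69 FPKM with full-length TAF4 and at 0 and 0.0663 with the deleted form. Itga1, a receptor chain for collagen and laminin, was at 16.4 and 16.6 against 1.31 and 0.458, and Itga11, which binds fibrillar collagen, at 52.1 and 53.1 against 17.1 and 10.9. All 3 were called lower (limma adjusted p = 0.0438, 0.0398 and 0.0496). In all 9 of 13 integrins were lower, with a median of -0.19, beside 44.9% lower and 1.68% called lower over all tested genes. Itga6, a laminin receptor chain, lay the other way without a call, at 1.99 and 1.60 against 4.70 and 18.9 FPKM. In the elastic fibre list 17 of 23 genes were lower and 3 were called: the fibulins Efemp1 and Fbln7 and the latent TGF-beta binding protein Ltbp2. Efemp1 was at 10.9 and 11 FPKM against 2.14 and 2.08, and Ltbp2 at 85.5 and 81.7 against 32.2 and 21.5.

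**Figure D2:**
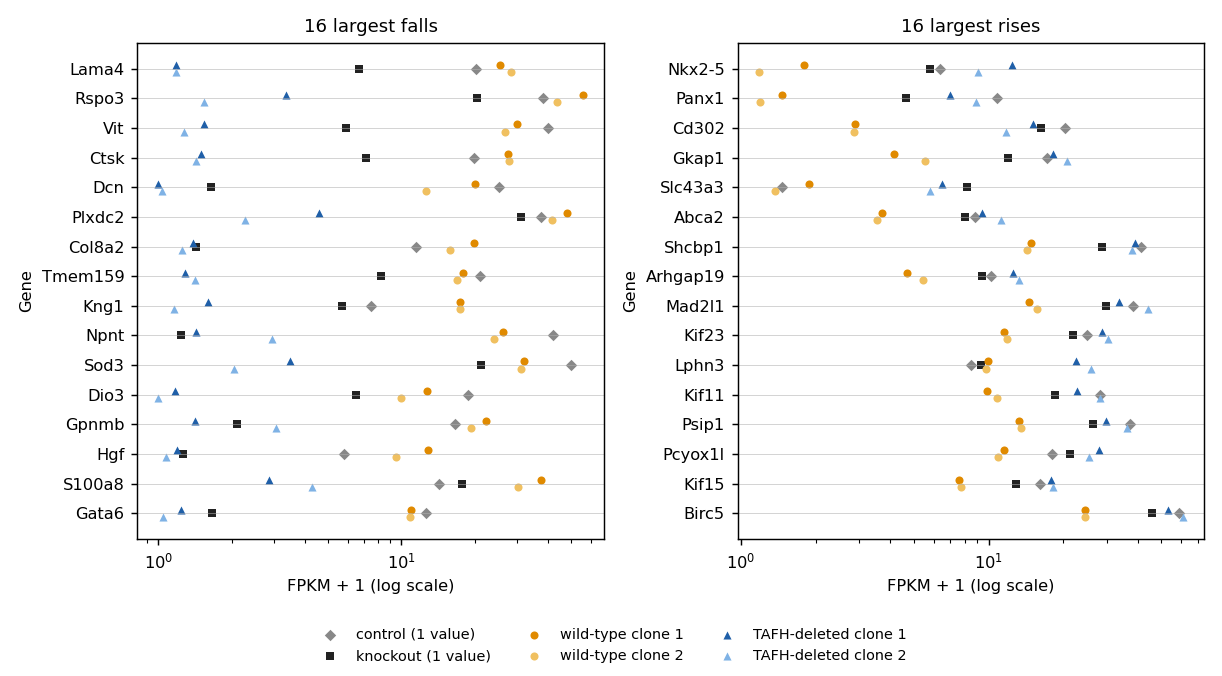
FPKM + 1 (horizontal, log scale) of the 16 largest falls (left) and 16 largest rises (right) among called autosomal genes, 1 gene a line, with a point for each rescue clone and 1 point each for control and knockout. In the left panel the TAFH-deleted points lie at the low end, near 1 for genes such as Lama4 and Dcn, and in the right panel the wild-type points lie lowest in every gene but Slc43a3 and Lphn3, where control reaches as low.

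Secreted growth factors and their receptors were lower in 38 of 47 cases, with 5 called (44.9% and 1.68% over all tested genes). Their median was -0.51. Among ligands, Hgf, hepatocyte growth factor, which signals to epithelium through Met, was at 11.9 and 8.46 FPKM against 0.192 and 0.0724, with control at 4.79 and knockout at 0.265. Fgf5, a fibroblast growth factor, was at 8.06 and 7.83 FPKM and listed at 0 in both TAFH-deleted clones, with control at 4.32 and knockout at 0.0294. Both ligands were thus close to absent with the deleted form and in knockout. Among receptors, Pdgfra, which receives platelet-derived growth factor, was at 52.9 and 56.7 FPKM against 11.5 and 8.81 (log2 difference -2.33 ± 0.15, limma adjusted p = 0.0366). Fgfrl1, a receptor of the fibroblast growth factor family without a kinase domain, fell least of the 5 called members, from 58 and 54.5 to 34.5 and 34.7 FPKM. Igfbp4, which binds insulin-like growth factors, was at 95.5 and 90.9 against 36.0 and 38.3. Igf1 itself was at 6.29 and 5.35 against 1.44 and 0.858 FPKM and was not called (adjusted p = 0.0521).

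Wnt ligands, agonists, receptors and antagonists were all among the 5 calls of the Wnt list. In it 28 of 40 genes were lower, with a median of -0.35, beside 44.9% lower and 1.68% called lower over all tested genes. Rspo3, a secreted agonist that stabilises Wnt receptors, was at 54.8 and 42.5 FPKM against 2.33 and 0.534. Wnt5a, a ligand of the non-canonical branch, was at 53.6 and 50.4 against 19.2 and 12.8. Fzd7, a receptor, was at 45.9 and 43.5 against 21 and 23. Sfrp1, a secreted antagonist, was at 66.0 and 58.4 FPKM against 8.11 and 5.73, and Wisp2, a matricellular protein, at 104 and 108 against 58.4 and 55.6. Agonists and antagonists therefore fell side by side. Fzd6, a further receptor, had the highest value of the list, at 11.3 and 11.6 against 23.4 and 30.7 FPKM, without a call (adjusted p = 0.0591).

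The TGF-beta and BMP list had 32 of 41 genes lower and 5 called (44.9% and 1.68% over all tested genes). Its median was -0.43, and its calls again held both sides of the pathway. The ligands Bmp4 (60.01 and 66.6 against 25.6 and 32.3 FPKM) and Gdf6 (2.97 and 2.52 against 0 and 0.0185) and the receptor Bmpr1b (17.8 and 16.2 against 3.84 and 3.64) fell. So did Nbl1, a secreted BMP antagonist, from 71.2 and 71.9 to 22.3 and 22.8 FPKM, and Bambi, a decoy receptor, from 2.11 and 1.59 to 0.0870 and 0.0892. Nbl1 had the smallest adjusted p of the list (0.0254, limma). In control and knockout Gdf6 was at 5.57 and 0.0812 FPKM and Nbl1 at 59.4 and 61.6, so the position of knockout differed between members. Axon guidance genes, which also steer other migrating cells, were lower in 25 of 39 cases with 3 called: Slit3 (3.97 and 3.55 against 0.0146 and 0.0386 FPKM), Sema3b (12.5 and 11.6 against 3.42 and 2.24) and the transmembrane protein Plxdc2 (46.8 and 40.5 against 3.57 and 1.27).

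Inflammatory genes were lower with the deleted form by unequal amounts in its 2 clones. Of 48 chemokine, cytokine and NF-kB target genes 42 were lower, with a median of -1.04, but the median against the wild-type mean was -0.47 in clone 1 and -1.56 in clone 2. Clone 2 was below clone 1 in 45 of the 48. Of the 48, 15 genes in clone 1 and 32 in clone 2 were at least 2-fold below the wild-type mean. Such genes numbered 636 and 968 among all 11640 tested, of which 44.9% were lower and 1.68% called lower. The 3 called were Il33, an alarmin cytokine, Il1rn, the interleukin-1 receptor antagonist, and Ptges, which makes prostaglandin E2. Il33 was at 9.57 and 7.05 FPKM against 0.872 and 0.132, Il1rn at 11.4 and 13.5 against 2.76 and 2.15, and Ptges at 4.80 and 3.02 against 0.224 and 0.161. Il6, a pleiotropic cytokine, had the largest difference of the list and was not called (adjusted p = 0.0873), at 49.0 and 44.7 FPKM against 6.75 and 0.419.

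Interferon-stimulated genes showed the same split. Of 45 genes 37 were lower, with a median of -0.51, made up of -0.06 in clone 1 and -0.93 in clone 2. Clone 2 was below clone 1 in 41 of 45. Zbp1, a sensor of Z-form nucleic acids, was the only call, at 2.38 and 2.62 FPKM against 0.484 and 0.319. Isg15, a ubiquitin-like modifier, was at 40.0 and 27.3 FPKM against 22.5 and 8.93, and Ifit1 at 27.6 and 17.7 against 31.0 and 7.16, so for Ifit1 clone 1 lay above both wild-type clones and clone 2 below them.

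Mitotic genes were higher with the deleted form without an exception. All 77 tested members of the mitosis list were higher, against 55.1% of all genes. The groups did not overlap in any of the 77, and 10 were called. Over all tested genes 35.8% were higher without overlap and 0.507% were called higher. The median log2 difference of the list was 0.87, with 0.73 for clone 1 and 1.03 for clone 2. The summed level of the list was 1198 and 1344 FPKM with full-length TAF4 and 2176 and 2589 with the deleted form, 2313 and 2323 in the control libraries and 1938 and 1944 in the knockout libraries. The wild-type clones were therefore the low group, and the TAFH-deleted clones lay in the range of control and knockout or above it. In all 77 genes both wild-type clones stood below control and below knockout, a position held by 30.2% of tested genes.

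Spindle motors, checkpoint proteins and cytokinesis factors were each represented among the calls. Kif11, the motor that separates spindle poles, was at 8.86 and 9.80 FPKM with full-length TAF4 and 21.7 and 27.3 with the deleted form, 27.2 in control and 17.6 in knockout. Kif23, a motor of the central spindle, was at 10.5 and 10.9 against 27.7 and 29.3 (log2 difference 1.33 ± 0.11 SE, limma adjusted p = 0.0389), and Birc5, survivin of the chromosomal passenger complex, at 23.5 and 23.5 against 51.9 and 60.2. The checkpoint genes Mad2l1 (13.5 and 14.7 against 32.8 and 42.9) and Bub1 (10.7 and 11.6 against 25.4 and 28.0) rose by similar amounts, 1.35 and 1.19 on the log2 scale. Ccna2, cyclin A2, was at 26.6 and 27.1 against 55.1 and 62.7. The smallest difference was 0.27, for Ckap5, a microtubule polymerase, and the largest 1.53, for Ect2, which drives furrowing; neither was called. Of the 77 genes 31 had over 20% of read positions in use.

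DNA replication genes were also higher throughout, but with a wide gap between clones. All 65 were higher, 54 without overlap of the groups and 0 called by limma, while 27 had an unadjusted p under 0.05; over all tested genes 35.8% were higher without overlap and 15% had such a p on the higher side. Their median was 0.78, from 0.36 in clone 1 to 1.27 in clone 2, and clone 2 was above clone 1 in all 65. Asf1b, a histone chaperone, had the largest difference, at 8.73 and 7.84 FPKM against 26.3 and 42.0 (adjusted p = 0.0534). Mcm2 and Mcm5, subunits of the replicative helicase, were at 21.6 and 18.7 against 30.7 and 63.5 and at 20.2 and 19.5 against 31.2 and 60.1. Control was at 52.3 for Mcm2 and 57.6 for Mcm5, so clone 2 stood at or above control and clone 1 near the knockout values of 29.0 and 31.7.

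**Figure D3:**
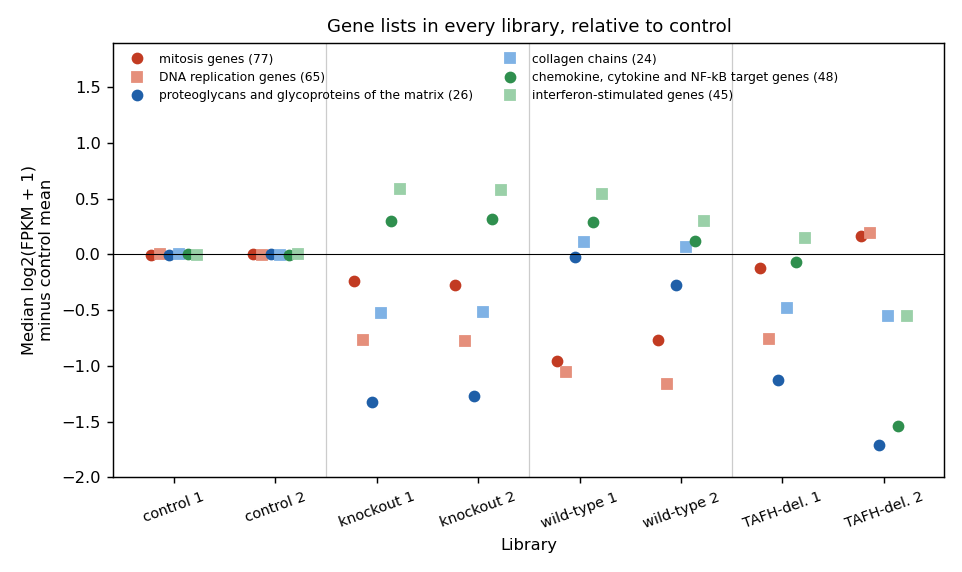
Median difference from the control mean on the log2(FPKM + 1) scale (vertical) for 6 gene lists in each of the 8 libraries (horizontal), with the number of genes in brackets. Mitosis and DNA replication genes are lowest in the wild-type clones, matrix lists are low in knockout and in the TAFH-deleted clones, and the chemokine, replication and interferon lists lie far apart in the 2 TAFH-deleted clones.

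Energy and lipid genes moved less. Of 64 oxidative phosphorylation subunits 62 were higher, 55 of them without overlap, with a median of 0.25 (over all tested genes 55.1% were higher and 35.8% higher without overlap). The 1 call was Ndufa9 of complex I, at 46.9 and 47.6 against 69.3 and 70.5 FPKM. In this list 54 of the 64 genes had over 20% of read positions in use. Cholesterol and fatty acid synthesis genes were higher in 25 of 31 cases with a median of 0.30 and 0 called (limma; 5 higher and 1 lower at an unadjusted p under 0.05). Elovl6, a fatty acid elongase, stood highest at 10.2 and 14.0 against 27.2 and 23.1 FPKM. Of 36 glycolysis and hypoxia genes 23 were lower, the median being -0.20, and Vegfa, the endothelial growth factor, was at 59.6 and 50.8 against 29.8 and 37.1. For these 36 limma called 0, with 8 lower and 0 higher at an unadjusted p under 0.05. Over all tested genes 44.9% were lower, and 15% were higher and 12.5% lower at such a p.

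The machinery that TAF4 belongs to showed no called member. Of 14 TFIID subunits on autosomes 12 were higher with a median of 0.28, and limma called 0, with 5 higher and 0 lower at an unadjusted p under 0.05. Over all tested genes 55.1% were higher, and 15% were higher and 12.5% lower at such a p. The smallest p was that of Taf12, which pairs with TAF4 through its histone fold, at 38.6 and 36.1 FPKM against 49.1 and 51.7 (adjusted p = 0.0754). Tbp, the TATA-binding subunit, was at 25.2 and 26.1 against 30.9 and 34.1. Taf4b, the paralog of Taf4, differed between clones of the deleted form, at 1.64 and 6.13 FPKM against 1.82 and 2.07.

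E proteins and their partners were also without a call. Tcf3 was at 59.8 and 57.3 FPKM with full-length TAF4 and 61.3 and 57.2 with the deleted form, and Tcf4 at 38.3 and 37.9 against 40.3 and 37.5, so neither pair was separated. Tcf12 was at 42.0 and 43.3 against 59.5 and 50.4 (adjusted p = 0.13). The Id genes varied: Id1 was at 80.4 and 64.5 against 96.7 and 108, Id3 at 109 and 110 against 132 and 115, and Id4 at 2.41 and 1.38 against 0.385 and 6.47, with the deleted clones on either side of the others. Runx1t1, the ETO corepressor that carries a TAFH-related domain, was at 10.4 and 10.6 FPKM against 5.95 and 4.86 (adjusted p = 0.0817). Of the 11 measured members 8 were higher and limma called 0, with 2 higher and 1 lower at an unadjusted p under 0.05. The shares over all tested genes were 55.1% higher, and 15% higher and 12.5% lower at such a p.

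Genes described as E-protein targets in other cell types were lower in 10 of 13 cases, with a median of -0.29 and 0 called by limma. At an unadjusted p under 0.05, 5 were lower and 0 higher. Over all tested genes 44.9% were lower, and 12.5% were lower and 15% higher at such a p. Clones differed here as well, with medians of -0.25 and -0.70. Cdkn1a, the p21 inhibitor of cyclin-dependent kinases, was at 11.3 and 4.96 FPKM with full-length TAF4 and 0.164 and 2.06 with the deleted form (log2 difference -2.18, adjusted p = 0.123). Its levels in control and knockout were 7.53 and 2.65. Cdkn1c, the p57 inhibitor, was at 0.708 and 0.974 against 0 and 0.0362 FPKM. Over the 32 genes of the CDK inhibitor and p53 list 15 were higher and 17 lower, with a median of -0.06.

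Lists with a single or a pair of calls covered several other roles. Zfp36, which speeds the decay of cytokine mRNA, was at 48.4 and 55.6 FPKM against 27.9 and 23.9. Spry1, an inhibitor of receptor tyrosine kinase signalling, was at 2.36 and 1.71 against 0.0307 and 0.0539. Both are immediate early genes, of which 27 of 34 were lower. Over all tested genes 44.9% were lower and 1.68% called lower. Ddit3, the stress factor CHOP, was at 97.6 and 87.2 against 56.8 and 51.7. Fabp4, a fatty acid carrier of adipocytes, was at 57.5 and 50.4 against 21.0 and 19.7. It was the only call of the adipocyte list, in which 8 genes were higher and 8 lower, and Ebf3, an early B-cell factor family member, lay highest at 5.21 and 3.57 against 14.8 and 8.69 FPKM (adjusted p = 0.113). H19, an imprinted noncoding RNA, was at 10.5 and 10.8 against 2.73 and 1.64, with control at 9.71 and knockout at 18.2. Erg, an ETS factor of endothelium, was at 8.71 and 10.7 against 0.802 and 1.41 FPKM, while the other endothelial markers did not pass the level filter. Tubb3, a neuronal tubulin, was at 10.8 and 10.2 against 1.52 and 2.60 and was the only call among 7 neural and glial markers, of which 4 were higher and 3 lower. Nes, the intermediate filament nestin, lay the other way at 0.584 and 0.579 against 3.83 and 6.26 FPKM (adjusted p = 0.0544). Dlx5, a homeobox gene of bone, was at 1.12 and 1.21 FPKM and listed at 0 in both TAFH-deleted clones, with control at 0.232 and knockout at 0. Among the 15 cartilage and bone genes tested 13 were lower, and Dlx5 was the only call. It passed the level filter through the wild-type clones alone, as did 6 of the 196 genes called lower, while 2 of the 59 called higher passed through the TAFH-deleted clones alone; such genes could pass it only by being high there.

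Outside the lists, the largest falls included transcription factors, enzymes and secreted proteins. Gata6, a zinc finger factor of mesoderm and endoderm, was at 9.95 and 9.83 FPKM against 0.234 and 0.0412, with control at 11.6 and knockout at 0.666. Sod3, the extracellular superoxide dismutase, was at 30.8 and 30.1 against 2.47 and 1.04, with control at 48.7 and knockout at 20.3. S100a8, a calcium-binding alarmin whose promoter is printed above, was at 36.4 and 29.3 against 1.86 and 3.28, with control at 13.2 and knockout at 16.7. Dio3, which inactivates thyroid hormone, was at 11.8 and 8.92 against 0.169 and 0, and its neighbour Dio3os, which lies 1101 bases away, fell too. Kng1, kininogen, was at 16.4 and 16.4 against 0.602 and 0.159, and its near-identical neighbour Kng2 was also called, so the split of reads between them is uncertain. Gpnmb, a membrane glycoprotein, was at 21.2 and 18.3 against 0.410 and 2.04, and Tmem159 at 16.9 and 15.9 against 0.290 and 0.408.

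The largest rises outside mitosis were genes low in the wild-type clones. Nkx2-5, a homeobox factor known from heart, was at 0.799 and 0.179 FPKM with full-length TAF4 and 11.5 and 8.07 with the deleted form, 5.35 in control and 4.81 in knockout. Its log2 difference was 2.87 ± 0.31 (SE, limma adjusted p = 0.0453), and of the 4 muscle markers tested no other was called, Myog being listed at 0 in every library. Panx1, a channel for ATP release, was at 0.470 and 0.190 against 5.96 and 7.93, with control at 9.80 and knockout at 3.63. Cd302, a C-type lectin, was at 1.89 and 1.85 against 14.1 and 10.8, and its neighbour Ly75, also a lectin receptor, rose from 16.6 and 15.5 to 37.1 and 33.8. For Nkx2-5, Panx1 and Cd302 the wild-type clones were below both control and knockout, while Ly75 was at 14.9 in control and 21.1 in knockout. Slc43a3, a solute carrier, differed: it was at 0.880 and 0.370 against 5.47 and 4.78 FPKM, with control at 0.459 and knockout at 7.2. Lphn3, an adhesion receptor, was at 8.93 and 8.76 against 21.6 and 24.9, above control at 7.53 and knockout at 8.36.

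**Figure D4:**
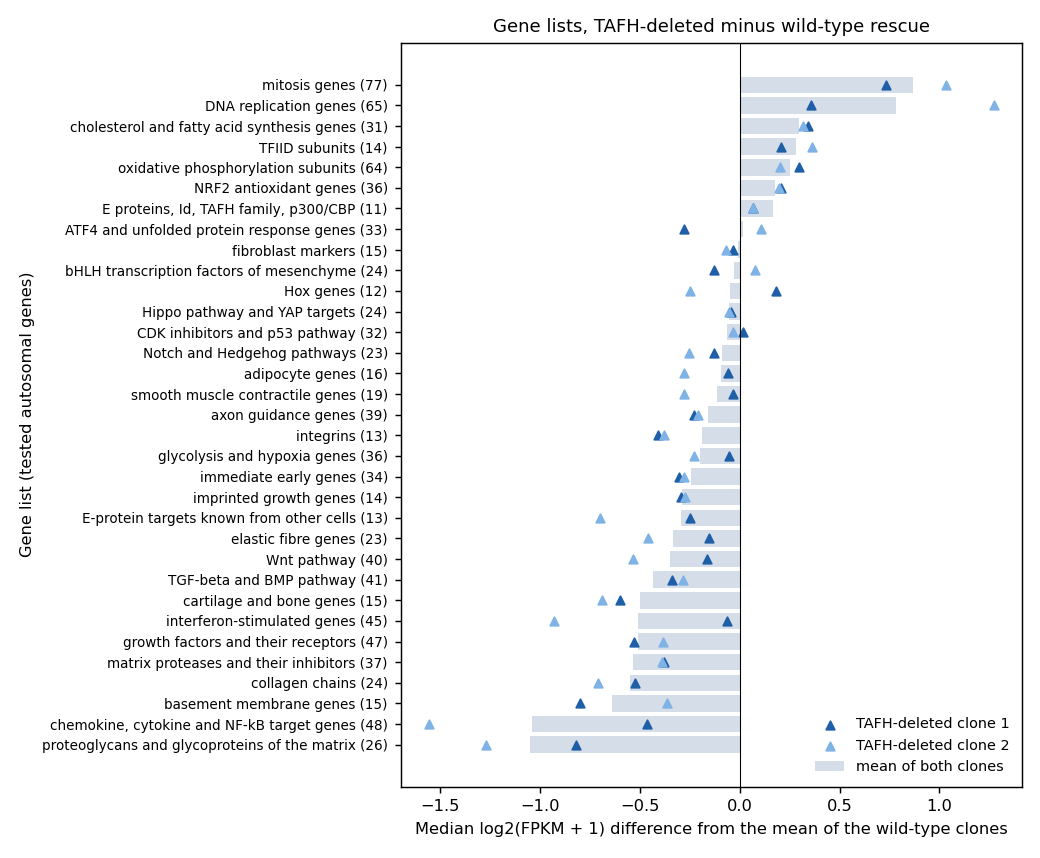
Median log2(FPKM + 1) difference from the mean of the wild-type clones (horizontal) for every gene list with at least 10 tested members (vertical, number of members in brackets), as a bar for the mean of both TAFH-deleted clones and a triangle for each clone. Mitosis and replication genes lie at the top and matrix proteoglycans and chemokines at the bottom; the triangles lie far apart for replication, interferon and chemokine genes.

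Control and knockout are not among the clones compared, and their values can be set beside the calls. Both entered the fit and the level filter, however, so the counts are not independent of the calls. Knockout was at least 2-fold below control in 83 of the 196 genes called lower (42.3%), against 5.74% of all tested genes, and at least 2-fold above it in 0 of the 196, against 0.808%. In the genes called lower the median knockout minus control difference was -0.87, against -0.04 over all genes. For the 59 genes called higher, knockout was at least 2-fold lower in 3 and at least 2-fold higher in 1, and it was below control in 67.8%, against 55.4% of all genes and 82.1% of the genes called lower. Control and knockout are 1 sample each here, so these are counts without a test. Members thus fell into different patterns: Dcn, Hgf, Fgf5, Gata6 and Npnt were low in knockout too, while Mmp2, Nbl1, S100a8 and H19 were at or above control there.

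Some chromosomes were shifted the same way in both TAFH-deleted clones. Over genes of moderate level (log-scale average no lower than that of a gene at 2 FPKM, with fewer than 20% of positions in use), the median difference from the wild-type mean was -0.27 and -0.12 on chromosome 1 in clones 1 and 2. It was -0.15 and -0.16 on chromosome 10, -0.22 and -0.19 on chromosome 12, and 0.23 and 0.20 on chromosome 6. On chromosomes 5, 8 and 16 the medians of the 2 clones had opposite signs. Between the wild-type clones no chromosome's median differed by more than 0.021. Chromosomes 1, 10 and 12 held 0 genes called higher and 18, 16 and 14 called lower (2.73%, 2.58% and 3.37% of their tested genes). Chromosome 6 held 10 higher (1.74%) and 5 lower (0.871%), and over all tested genes 0.507% were called higher and 1.68% lower. Chromosome 9, at 0.109 and 0.165, had 0.89% of its genes called higher and 1.48% called lower. Chromosome 2, at 0.056 and 0.096, had 1.04% called higher and 1.55% called lower. Some other chromosomes did not show this match of shift and calls. Chromosome 16, with medians of -0.001 and 0.085, held 0 higher and 10 lower (2.58%). Chromosome 7, at -0.11 and -0.12, had 1.47% of its genes called lower, and chromosome 18, at 0.042 and 0.046, had 3.11%. Lama4, Rspo3, Dcn and Col10a1 lie on chromosome 10, and Mad2l1, Cdca3 and Ndufa9 on chromosome 6. The part of the chromosome in their differences was not tested.

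**Figure D5:**
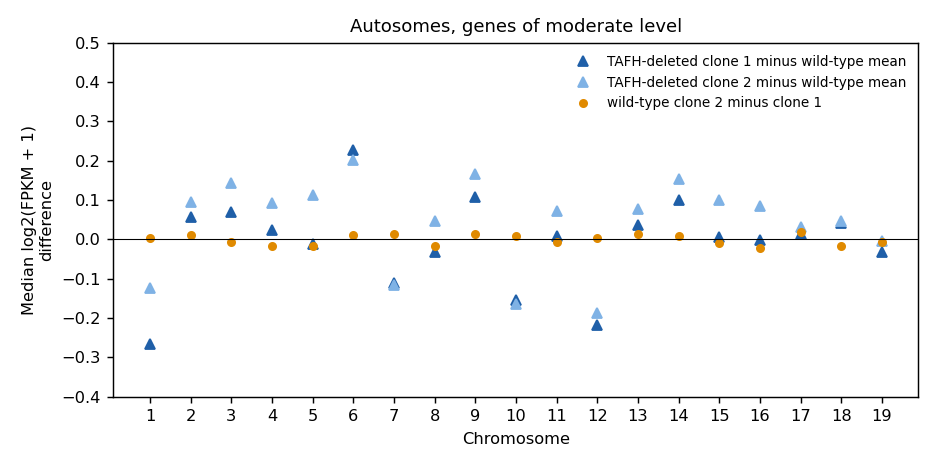
Median log2(FPKM + 1) difference (vertical) of genes of moderate level on each autosome (horizontal), for each TAFH-deleted clone against the wild-type mean (triangles) and between the wild-type clones (circles). Both triangles are low on chromosomes 1, 7, 10 and 12 and high on chromosome 6, while the circles stay between -0.021 and 0.018.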

How the data were processed

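mRNA libraries of 8 samples were analysed from the authors' deposited table. Per the submitters' processing notes, CASAVA 1.8, TopHat, Cufflinks and Cuffdiff were used on mm9; other versions, options and strand use are not given in the sources used here. Per the file headers, the table holds FPKM for 30028 transcripts in every library, transcript lengths, and the authors' group means with deposited p-values and q-values, which were not used. Of the transcripts 28871 (96.1%) matched RefSeq names, and 47 symbols turned into dates were restored. FPKM were summed per gene and chromosome, with 1-based mm9 coordinates, and tested as log2(FPKM + 1), a scale that understates changes of low genes.

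The fit was limma 3.58.1 (R 4.3.3) with a trended prior, two-sided, on 6 samples: each rescue clone, the control mean and the knockout mean. It had 2 residual and 2.15 prior degrees of freedom and no covariates, over 12025 genes of all chromosomes with Benjamini-Hochberg adjustment, a gene being called at an adjusted p of 0.05. The fit was also run on simulated data with the same spread in every group. That run does not cover the unequal spread of the clones here. Depth came from FPKM steps: after 204.1 bases were taken from the length, at least 96.3% of low values were whole fragments within 0.05. The labels do not say that a clone number is shared between the forms, so the fit did not pair the clones. Deviations of clones numbered 1 correlated at -0.08 across genes, which cannot tell whether clones of equal number were handled together.

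The members and the 38 gene lists were chosen with earlier results of these data known, so list counts support nothing independently. Genes named are the 16 largest falls and rises among called genes with separated groups whose higher mean reaches 5 FPKM, up to 6 called members a list, up to 3 members of lists without a call, and TFIID, E-protein and Id genes. Lists without a call that are not described are smooth muscle, Hippo, Notch and Hedgehog, bHLH, Hox, NRF2, epithelial and leukocyte genes. The lowest and highest members of lists, and Igf1, Isg15, Ifit1, Mcm2, Mcm5, Col5a1, Ly75, Kng2, Nes and Dio3os, were named after their values were seen.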

Additional observations from a re-analysis of the deposited data

How the results depend on the processing

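The direction of all 77 named called genes was the same in every alternative that tested them, while the number of calls was not stable. Since the groups do not overlap in any called gene, most alternatives could not have reversed a direction. Against 59 higher and 196 lower, limma called 2461 and 1824 with all 8 libraries counted separately, 16 and 102 with a pseudocount of 0.1, 8 and 58 with at least 5 FPKM required, 28 and 119 after quantile normalization, 9 and 81 on autosomes alone and 11 and 78 with short genes kept. Calls numbered 35 higher and 149 lower with the 4 rescue libraries fitted alone, 31 and 138 with robust empirical Bayes and 39 and 212 with a constant prior. With no filter on low values 0 and 0 were called (1916 higher and 2152 lower at an unadjusted p under 0.05), and with clone number as a replicate block 0 and 0 (1216 and 1267). Leaving out a clone gave 0 to 3600 higher and 0 to 2833 lower. Counts of genes with a 2-fold gap, whose alternatives were chosen after seeing the data, went from 57 and 360 to 120 and 571 with a pseudocount of 0.1 and 13 and 161 with one of 4, and ranged from 86 to 476 and from 413 to 843 with a clone left out. The causes of these shifts were not tested. Among lists whose median was larger than the spread between clones of a form, the sign changed in 3 cases. The E-protein and Id list stood at -0.159 and the NRF2 list at -0.623 with genes over 20% of positions left out. That setting removes 6 of 11 and 25 of 36 members. The CDK inhibitor and p53 list ranged from -0.079 to 0.014 with a clone left out. Medians within that spread also changed sign. Against the wild-type mean, clone 1 alone gave -0.278 for the ATF4 list (0.016 with both clones) and 0.18 for the Hox list (-0.051 with both). The number of clones, 2 a form, and the read ceiling limit precision for abundant genes.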

Other observations

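Genes that set the 2 TAFH-deleted clones apart were looked for after the data were seen, among genes at 5 FPKM or more in either clone. Of the 8 genes that dropped farthest from clone 1 to clone 2, 6 are described first. Hp, haptoglobin, was at 38.2 FPKM in clone 1 and 0.432 in clone 2, with 67.0 and 53.1 in the wild-type clones. C3, the central complement component, was at 82.3 and 2.09, Lbp, which binds lipopolysaccharide, at 17.8 and 0.0265, and Slpi, a protease inhibitor, at 52.7 and 1.56. Steap4, a metalloreductase, was at 24.6 and 0.441 and Serpina3g at 18.3 and 0.137. In each of these clone 1 was within 2-fold of control, which was at 43.2 for Hp, 85.5 for C3, 18.4 for Lbp, 51.8 for Slpi, 25.9 for Steap4 and 15.97 for Serpina3g. The other two were Cd74, the invariant chain of MHC class II, at 29.5 and 0.814, and Ndufs5, a complex I subunit, at 22.1 and 0.00231. Ndufs5 split the wild-type clones as well, at 0.0163 and 18.6.

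Among the 8 genes that rose farthest from clone 1 to clone 2, 5 are given here. Selp, P-selectin, was at 1.47 and 26.8 FPKM in the 2 clones, Nipal1, a magnesium transporter, at 1.33 and 19.8, and Herc3, a ubiquitin ligase, at 2.65 and 22.5. Eps8, an actin regulator downstream of growth factor receptors, was at 0.835 in clone 1 and 10.9 in clone 2, beside 10.8 and 11.1 in the wild-type clones, 12.7 in control and 0.853 in knockout. Perp, a p53 target of cell junctions, was at 2.23 and 26.1, with 38.5 in control and 4.82 in knockout. Each clone is 1 library, so these differences have no replicate.

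Called genes next to each other on a chromosome moved in the same direction. Among called genes 16 neighbouring pairs lay within 200 kilobases or overlapped, and in all 16 both members were called the same way, in 13 of them lower. Of all possible pairs of called genes 64.3% share a direction, because most calls are lower. They include Cd302 with Ly75, Prdm8 with Fgf5, Apoe with Pvrl2, Mt1 with Mt2, Kcnj15 with Erg and Rxfp3 with Adamts12. Overlapping or near-identical pairs such as Ugt1a6b with Ugt1a7c may share reads.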
